A study of Homo sapiens with 6 samples.

Results

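The human globin genes were examined in single nuclei of teratomas grown from a human embryonic stem cell line. They are HBE1, HBG1, HBG2 and HBB of the beta cluster and HBZ, HBA1, HBA2 and HBM of the alpha cluster. These 8 genes were taken by symbol from the 38606 human genes of the count tables, and they had been chosen with their levels in these libraries known, so the levels below are a description. Among 49204 human nuclei kept from 6 libraries, 638 nuclei held at least 1 globin UMI (a unique molecular identifier, which counts 1 captured RNA molecule) and 50 nuclei held 2 or more. These 50 are called globin-positive below, and the 588 nuclei just outside that limit held exactly 1 globin UMI.

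Haemoglobin carries oxygen in red blood cells and pairs alpha-like with beta-like chains. In human development the first, primitive red cells of the yolk sac carry zeta and epsilon chains, encoded by HBZ and HBE1. Fetal liver red cells carry alpha chains from HBA1 and HBA2 with gamma chains from HBG1 and HBG2, and adult red cells carry alpha with the beta chain from HBB. HBM encodes the mu chain, an alpha-like globin transcribed at a low level in erythroid cells.

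The cells were H1, an established human embryonic stem cell line, injected with Matrigel into the flanks of NSG mice, which lack mature lymphocytes but keep their own red cells. The 3 groups had 2 libraries each: DATG (ΔATG, a change to lncPRESS1 that the labels do not describe), KO (lncPRESS1 knockout) and WT. lncPRESS1 is a long non-coding RNA of pluripotent cells. Nothing in the labels ties the libraries to separate tumours, mice or clones, so the tests measure the spread between libraries, which may be technical.

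Nuclei rather than whole cells were sequenced from frozen tumours with a 3′ droplet assay. LNCPRESS1 itself had 1 and 3 UMIs in the DATG libraries, 2 and 0 in KO and 7 and 2 in WT, too few to check the labels. The human UMIs of the kept nuclei came to between 22003341 and 35567544 per library, and the kept nuclei numbered between 5254 and 10932. The DATG libraries resembled each other less than the other pairs did, with a Pearson correlation across genes of 0.853 in log2 counts-per-million (CPM, the UMIs of a gene scaled to the human UMIs of its library), against 0.972 for KO and 0.961 for WT. Mitochondrial RNA made up 0.512% and 0.526% of human UMIs in DATG, 0.167% and 0.115% in KO and 0.172% and 0.0753% in WT. Of 48944 distinct barcodes 260 occurred in more than 1 library, and none of the globin-positive ones did.

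The beta-like genes lie on the minus strand of chromosome 11 in GRCh38. RefSeq places HBB at 5225464 to 5227071, HBG1 at 5248269 to 5249857, HBG2 at 5253188 to 5254781 and HBE1 at 5268345 to 5269945. In GENCODE 29 the gene models of HBE1 and HBG2 reach 5505652 and 5505605 and overlap each other and the olfactory receptor gene OR51B5, and how the authors' counting treated that stretch is not known. The alpha-like genes lie on the plus strand of chromosome 16, with HBZ at 152644 to 154503, HBM at 165978 to 166764 (its GENCODE 29 model overlaps HBZ), HBA2 at 172876 to 173710 and HBA1 at 176680 to 177522. HBA1 and HBA2 transcripts share 559 of 576 bases and HBG1 and HBG2 transcripts share 582 of 614, so the split of reads within each pair is uncertain.

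The promoter table matched 1 of the 8 genes, HBM, and its sequence is shown because motifs bound by erythroid factors can be read in it. The 300 bases run from 250 bases before to 50 after the RefSeq start, at chr16:165728-166027 on the plus strand of GRCh38.p14, with the matches to GATAAG and TATAA in capitals.
HBM promoter: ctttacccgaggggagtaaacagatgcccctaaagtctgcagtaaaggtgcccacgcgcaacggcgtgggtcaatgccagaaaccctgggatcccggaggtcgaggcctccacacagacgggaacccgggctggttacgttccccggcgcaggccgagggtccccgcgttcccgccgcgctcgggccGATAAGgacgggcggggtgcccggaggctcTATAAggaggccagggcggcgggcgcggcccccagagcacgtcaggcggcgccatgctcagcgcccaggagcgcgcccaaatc
GATAAG, the core letters read by GATA factors, starts 63 bases before the start, and TATAA, the core of the TATA box, starts 33 bases before it. On either strand GATAAG occurred in 6.36% and TATAA in 20.4% of the 35116 promoters of that table. The 2 motifs do not overlap, and a match is a description of letters only.

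HBE1, the epsilon chain gene, made up 2430 of the 6606 globin UMIs in the kept nuclei. It stood at 52.2 and 23.2 CPM in DATG, 0.125 and 0.80 CPM in KO and 0.383 and 0.515 CPM in WT. Both DATG libraries lay far above the other 4, and KO and WT overlapped. The gamma chain gene HBG2 stood at 34.5 and 3.86 CPM in DATG, 0.219 and 0.80 CPM in KO and 0.415 and 4.40 CPM in WT. In these nuclei WT replicate 2 exceeded DATG replicate 2 for HBG2. Over all deposited barcodes HBG2 had 1292 and 534 UMIs in DATG and 14 and 187 in WT, which turns that order in UMIs. However, 1 barcode of DATG replicate 2, with 85.0% human UMIs, held 398 of the 534. HBG1, the other gamma gene, had 13.6 and 2.41 CPM in DATG, 0.0313 and 0.114 CPM in KO and 0.160 and 1.43 CPM in WT. HBB, the adult beta chain gene, had 56 and 1 UMIs in DATG, 1 and 0 in KO and 0 and 19 in WT. Its counts were concentrated in DATG replicate 1 and WT replicate 2.

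HBZ, the zeta chain gene, stood at 21.3 and 1.18 CPM in DATG, 0.594 and 0.457 CPM in KO and 0.351 and 0.400 CPM in WT. HBA1 had 11.1 and 0.909 CPM in DATG, 0 and 0.114 CPM in KO and 0 and 1.20 CPM in WT. HBA2 had 14.5 and 1.18 CPM in DATG, 0 and 0.143 CPM in KO and 0.0959 and 1.49 CPM in WT. DATG was above KO for both alpha genes, and WT replicate 2 was above DATG replicate 2 in these nuclei. Over all barcodes that order turned too in UMIs, with HBA1 at 418 and 180 UMIs in DATG and 1 and 53 in WT. HBA2 had 533 and 270 UMIs in DATG and 3 and 66 in WT. The barcode with 85.0% human UMIs held 137 of the 180 HBA1 and 211 of the 270 HBA2 UMIs of DATG replicate 2. A count of 0 in KO replicate 1 allows up to 0.0938 CPM, and these limits cover counting error only. HBM had 60 and 2 UMIs in DATG, 1 and 4 in KO and 0 and 11 in WT. The group sums cannot tell fewer globin-bearing nuclei from less globin RNA per nucleus.

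**Figure D1:**
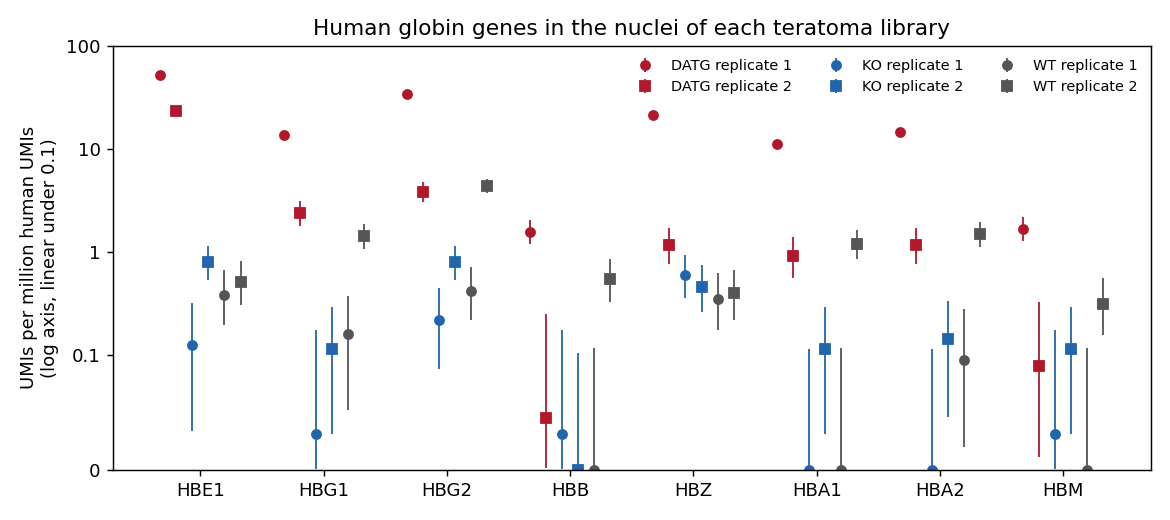
Level in CPM (vertical log axis, linear under 0.1) of the 8 globin genes in the 2 DATG, 2 KO and 2 WT libraries, with exact Poisson 95% intervals of the counts as bars. HBE1 at 52.2 and 23.2 CPM in DATG stands apart from the KO and WT libraries. HBG2, HBA1 and HBA2 of WT replicate 2 lie above DATG replicate 2 in these kept nuclei. That order turns in UMIs over all barcodes, where 1 barcode holds most of these UMIs of DATG replicate 2.

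No globin gene passed an adjusted p of 0.05 in any of the 3 comparisons (edgeR's quasi-likelihood test on the summed counts of each library, Benjamini-Hochberg adjusted over 26552 genes, of which all 8 globins passed the filter on low counts). No gene of the whole table passed it either, which is 0% called in each comparison. HBG1, HBA1, HBA2, HBM and HBB passed the filter on low counts only with DATG in the fit and failed it with KO and WT alone. The globins were also chosen with these levels known, so their p-values and their counts beside all genes are a description. At an unadjusted p under 0.05 edgeR had 3 of the 8 globins in DATG against WT, where 2.98% of all genes were that low. All 3 (HBE1, HBZ and HBG1) were higher, as were 1.44% of all genes at that p. It had 6 of the 8 in DATG against KO, all higher, where the share of all genes was 6.08%, or 4.31% for higher genes, and 0 of the 8 in KO against WT, where it was 4.63%. HBE1 had a log2 fold change of 6.50 ± 0.92 (SE) in DATG over WT, with an edgeR adjusted p of 0.726. Over KO its log2 fold change was 6.39 ± 0.92, with an edgeR adjusted p of 0.676. HBZ came next over WT, with a log2 fold change of 4.97 ± 1.29 and an edgeR adjusted p of 1.00.

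DESeq2, the other tool run, called HBE1 and HBZ higher in DATG than in WT, with adjusted p of 3.21e-13 and 0.00159. Its share of all genes called higher there was 0.0922%. It called 5 globins higher in DATG than in KO (HBE1, HBZ, HBG1, HBG2 and HBA2), against 0.230% of all genes, and 0 of the 8 in KO against WT, where 0.00753% were called higher and 0.49% lower. DESeq2 gave HBE1 a log2 fold change of 6.51 over WT, close to that of edgeR. Since the globins were chosen with their levels known, these calls and the counts of globins below are likewise a description. The limit given above for HBG1, HBA1, HBA2, HBM and HBB, which passed the filter through DATG, holds for these counts too. With edgeR and DATG replicate 1 left out, HBE1 was higher over WT, as were 1.69% of all genes, and HBE1 and HBG1 were higher over KO, as were 9.23% of all genes. That fit leaves 1 DATG library, assumed to vary like the others, so these 2 of 8 are not read as a result about the globins. With DATG replicate 2 left out, HBE1 and HBZ were higher over WT, as were 0.177% of all genes, and HBZ was higher over KO, as were 0.0108%. Both DATG libraries lay above both WT libraries for 3 globins (HBE1, HBG1 and HBZ), as did 6.91% of all tested genes. Both lay above both KO libraries for all globins but HBM, that is 7 of 8, as did 15.8% of all tested genes. In KO against WT, HBZ was the 1 globin with both KO libraries above (19.6% of all genes) and HBG1 the 1 with both below (24.3%).

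Over the 8 globins the summed level was 150.6 and 32.9 CPM in DATG, 1.03 and 2.54 CPM in KO and 1.41 and 10.3 CPM in WT. DATG averaged 91.7 ± 83.2 CPM and WT 5.85 ± 6.28 CPM (SD, n = 2 each), and the exact two-sided permutation test gave p = 0.3333, the smallest that 2 libraries against 2 allow. KO averaged 1.79 ± 1.07 CPM, which gave p = 0.667 against WT and 0.3333 for DATG against KO by the same exact permutation test. The spread between the 2 DATG libraries was almost as large as their mean.

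A few nuclei carried most of this signal. Of the 6606 globin UMIs 5826, or 88.2%, lay in 13 nuclei with at least 20 globin UMIs each, and all 13 belonged to DATG. In DATG replicate 1, 5 nuclei held 2245, 1325, 984, 509 and 158 globin UMIs, together 97.5% of that library's 5356. In DATG replicate 2, 8 such nuclei held between 21 and 160, together 605 of its 724. The highest nucleus had 1 globin UMI in KO replicate 1, 6 in KO replicate 2, 4 in WT replicate 1 and 14 in WT replicate 2. Outside the 13 nuclei HBE1 stood at 0.984 and 1.96 CPM in DATG and HBG2 at 0.928 and 1.46 CPM in DATG. Those nuclei were set aside for their globin count and all are from DATG, so leaving them out can only lower DATG and is a description.

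Globin-positive nuclei numbered 5 and 19 in DATG, 0 and 4 in KO and 3 and 19 in WT. As shares of kept nuclei these were 0.0462% and 0.340% in DATG, 0% and 0.0542% in KO and 0.0571% and 0.174% in WT. The exact (Clopper-Pearson) 95% interval was 0.205% to 0.530% in DATG replicate 2 and 0.105% to 0.271% in WT replicate 2. A count of 0 in KO replicate 1 allows a share of up to 0.0325%. With every nucleus thinned to 2000 UMIs and shallower ones left out, the counts were 5 of 7045 and 5 of 3587 in DATG, 0 of 6171 and 0 of 6104 in KO and 0 of 4046 and 5 of 7043 in WT. DATG replicate 1 and WT replicate 2 then had the same share, 0.0710%, and DATG replicate 2 had 0.139%. That step left out between 1208 and 3889 nuclei per library. The groups overlapped for DATG against WT (exact permutation p = 1) and for DATG against KO (exact permutation p = 0.667). Before thinning KO lay below WT without overlap, at the smallest possible exact permutation p of 0.3333. That rests on shares of 0.0542% in KO replicate 2 and 0.0571% in WT replicate 1. After thinning WT replicate 1 had 0, as did both KO libraries.

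**Figure D2:**
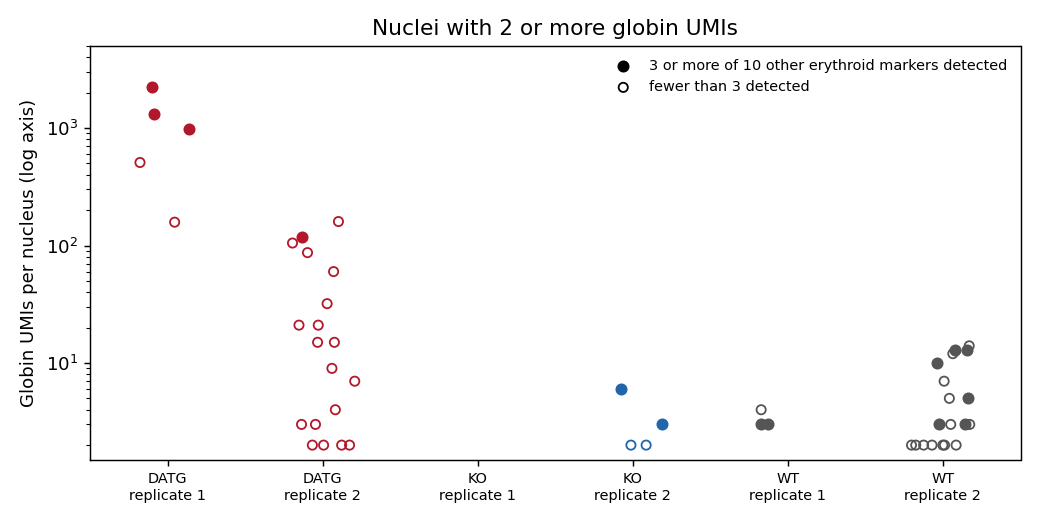
Globin UMIs (vertical log axis) of each of the 50 nuclei with 2 or more, by library, with filled points for nuclei in which at least 3 of 10 other erythroid marker genes were detected. All nuclei of 20 or more globin UMIs are in DATG, 5 in replicate 1 and 8 in replicate 2, and KO replicate 1 has no point.

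The make-up of the globin RNA differed between libraries and between nuclei of 1 library. HBE1 made up 51.3% of the beta-like UMIs in the globin-positive nuclei of DATG replicate 1, 81.6% in DATG replicate 2 and 4.17% in WT replicate 2. The exact 95% intervals of these shares were 49.6% to 52.9%, 78.3% to 84.6% and 0.868% to 11.7%, and they treat UMIs of 1 nucleus as independent. KO replicate 2 had 6 HBE1 UMIs among 9 beta-like UMIs and WT replicate 1 had 3 among 8, too few to place. Within DATG replicate 1 HBE1 ranged between 15.2% and 89.2% of the beta-like UMIs of a nucleus. The 2 nuclei with the most globin had 38.9% and 35.2% HBE1 with 57.2% and 64.6% gamma, and the next 2 had 89.2% and 88.1% HBE1. HBZ took 44.7% and 19.9% of the alpha-like UMIs in the first pair and 61.5% and 71.3% in the second. The nucleus of 158 globin UMIs had 84.8% gamma and no HBZ.

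In DATG replicate 2 all 8 nuclei were mainly HBE1, which made up between 71.1% and 100% of their beta-like UMIs. Alpha-like genes (HBZ, HBA1 and HBA2) were scarce there, at 8.10% of the alpha-like and beta-like UMIs together in its globin-positive nuclei, against 31.2% in DATG replicate 1 and 26.5% in WT replicate 2. These DATG replicate 2 nuclei were also shallow: 7 of the 8 had between 662 and 1363 UMIs, and the library's kept nuclei had a median of 2803. In WT replicate 2 the globin-positive nuclei held 62 gamma, 26 alpha, 7 HBB, 7 HBM, 3 HBE1 and 0 HBZ UMIs.

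**Figure D3:**
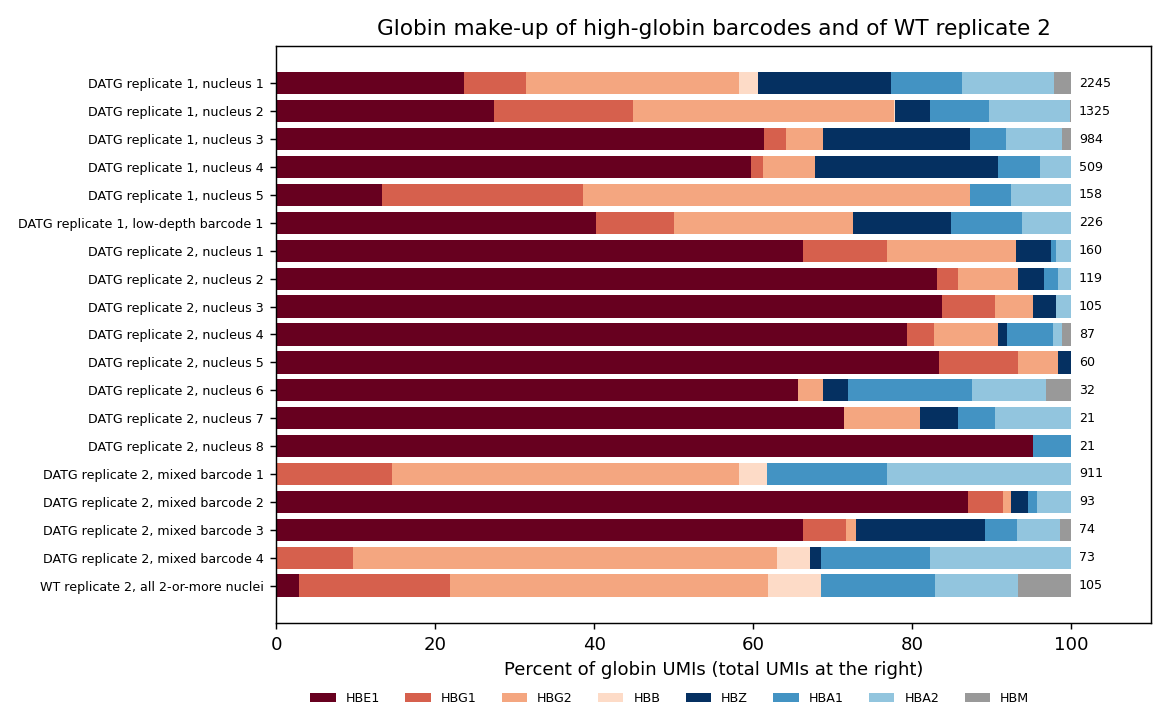
Percent of the globin UMIs from each of the 8 genes (horizontal axis) in every barcode with at least 20 globin UMIs, with those that failed the limits on depth or species also shown, and in the pooled globin-positive nuclei of WT replicate 2. HBE1 (dark red) fills most of the bars of DATG replicate 2 nuclei, while gamma and alpha genes fill those of WT replicate 2 and of 2 mixed barcodes.

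Single globin UMIs were spread thinly over nuclei of every kind. All 30 clusters of the kept nuclei held nuclei with at least 1 globin UMI, in shares between 0.336% and 2.82%. The 4 neuron-like clusters were taken as a reference because neurons are not red cells. Their share of nuclei with a globin UMI was 0.865% and 1.75% in DATG, 0.524% and 0.816% in KO and 0.241% and 1.94% in WT. In all other nuclei it was 1.40% and 1.30% in DATG, 0.303% and 1.15% in KO and 0.744% and 2.56% in WT. Median depths of the neuron-like nuclei were between 2674 and 5269 UMIs, and of the others between 2432 and 3849. The neuron-like share was the higher one in DATG replicate 2 and KO replicate 1 and the lower one in the other 4 libraries. A share at or below that in neuron-like nuclei is treated as background here, and the source of these single UMIs was not tested. The CPM values and the tests between groups count single UMIs as well. The limit of 2 did not clear neuron-like nuclei either, which held 1 of the 19 globin-positive nuclei of DATG replicate 2 and 2 of the 4 of KO replicate 2. By library, HBE1 was 35 of 73 beta-like single UMIs in DATG replicate 1 and 15 of 169 in WT replicate 2. In KO replicate 1, where no nucleus had more than 1, HBZ gave 19 of 33 globin UMIs.

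No cluster was named erythroid-like. The naming rule uses levels over a whole cluster, so it can miss a few erythroid nuclei within a large one. The largest part of the globin-positive nuclei, 18 of 50, fell in an unnamed cluster of 4810 shallow nuclei (median 1064 UMIs), which held 5141 globin UMIs. All 8 globins were among the variable genes used for the clusters, and 6 of them led that cluster with heat shock genes such as HSPA1A, so its globin level is not a finding. Outside the 13 nuclei its globin level was 15.6 CPM, still the highest of the 30 clusters. The next were cluster 11, led by gut genes such as SI, at 6.72 CPM and a mesenchyme-like cluster at 6.58 CPM. Over the 30 clusters the genes whose log2 CPM was most like that of the summed globins were PCNP (Pearson r 0.788), ZC3H15 (0.778) and TCEAL9 (0.754). PCNP had its highest level in the shallow cluster, as did all 10 of the closest genes, so these correlations describe that cluster and share its depth.

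Other genes of red cells were higher in the summed globin-positive nuclei, although 27 of the 50 had none of 10 other erythroid markers detected. Those without a marker were 1 of 5 and 13 of 19 in DATG, 2 of 4 in KO replicate 2 and 1 of 3 and 10 of 19 in WT. The nuclei were summed and set against all other nuclei within each of the 3 libraries that held at least 5 of them (DATG replicates 1 and 2 and WT replicate 2, 43 nuclei), with the globins left out. With edgeR and an adjusted p under 0.05 over 19005 genes, 20 genes were higher, 0.105% of those tested, and 0 were lower, where 693 had an unadjusted p under 0.05 and lower levels and DESeq2 called 1 lower. Of the 20, 13 belonged to the lists of erythroid surface and cytoskeleton genes, erythroid transcription factors and heme genes. The globin-positive nuclei were chosen on globins alone, so these genes had no part in the choice. Levels of globin-positive and of other nuclei are scaled to their non-globin human UMIs. The globin-positive sums held 10969 and 79997 such UMIs in DATG and 106203 in WT replicate 2, so single UMIs weigh heavily. Against other nuclei of like depth, 19 genes passed, 18 of them among the 20. Without WT replicate 2 the count was 6, all among the 20. Without DATG replicate 1 it was 21, of which 9 were among the 20, and 53 genes were then lower.

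Genes typical of red cells had the largest differences. Those near 0 in other nuclei passed the filter on low counts through the globin-positive sums, so their rank and p-values are a description. HEMGN, an erythroid nuclear protein gene, stood at 820 and 50.002 CPM in the globin-positive nuclei of DATG and 37.7 CPM in those of WT replicate 2, against 0.0563, 0 and 0.115 CPM in the other nuclei of the same libraries in that order. Its log2 difference was 10.72 ± 0.77 (SE, edgeR adjusted p 2.39e-38), and 17 of its 23 UMIs lay in 8 globin-positive nuclei. SLC4A1, the band 3 anion exchanger, stood at 729 and 25.0 CPM in globin-positive nuclei of DATG and 207 CPM in those of WT replicate 2, and at most 0.373 CPM in other nuclei. Both genes were higher in 3 of 3 libraries, and the values of globin-positive and other nuclei did not overlap. These levels rest on few UMIs. SLC4A1 had 8 and 2 UMIs in globin-positive nuclei of DATG and 22 in those of WT replicate 2, and HEMGN had 9, 4 and 4.

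GYPB (glycophorin B), SPTB (beta spectrin), ANK1 (ankyrin), GYPC (glycophorin C), KEL (the Kell antigen), TMOD1 (tropomodulin) and BLVRB (biliverdin reductase B) were also higher in 3 of 3 libraries, with log2 differences between 2.83 and 7.58. KEL had 1 UMI in globin-positive nuclei of DATG replicate 1, which gave 91.2 CPM. CA1, the red cell carbonic anhydrase, was higher in 2 of the 3 and had 0 UMIs in globin-positive nuclei of DATG replicate 2. HEMGN had 73.9% of its UMIs in the 43 nuclei, whereas GYPC had 2.68% there, with 1564 UMIs in other nuclei. ALAS2, the erythroid enzyme of the first step of heme synthesis, was the heme gene that passed: 456 and 50.002 CPM in globin-positive nuclei of DATG and 94.2 CPM in those of WT replicate 2, against 0.647, 0.0456 and 0.574 CPM in other nuclei, a log2 difference of 7.72 ± 0.64.

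**Figure D4:**
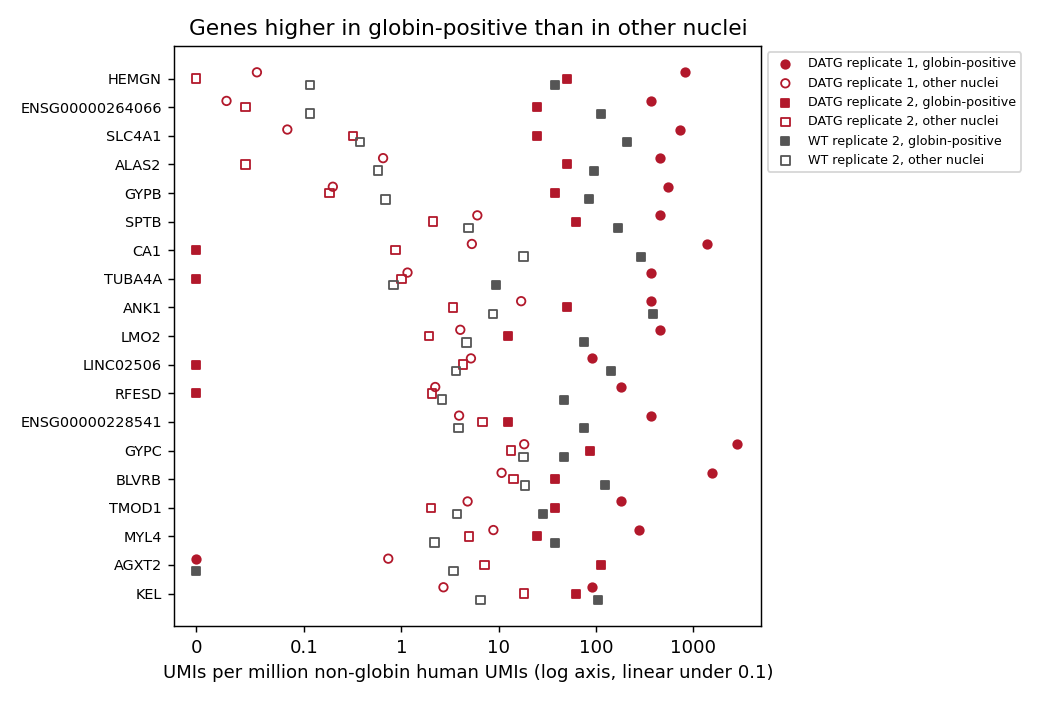
Level (CPM over non-globin human UMIs, horizontal log axis, linear under 0.1) of 19 of the genes higher in globin-positive (filled) than in other nuclei (open) of DATG replicates 1 and 2 and WT replicate 2. HEMGN, SLC4A1, ALAS2 and GYPB are under 1 CPM in all other nuclei, and AGXT2 is above 0 in the globin-positive nuclei of DATG replicate 2 alone.

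Of 28 listed erythroid surface and cytoskeleton genes 23 passed the filter on low counts and 11 were higher. Genes near 0 in other nuclei, such as HEMGN with 6 UMIs there, passed that filter through the globin-positive sums where they are high, so the count over the tested genes is a description. Of 12 listed erythroid transcription factors 6 were tested and 1 was higher, LMO2, a bridging protein of the GATA1 complex, at a log2 difference of 4.11 ± 0.66. GATA1 and KLF1, the master factors of the lineage, had 3 and 2 UMIs in the 43 nuclei and did not reach the filter on low counts. Of 16 heme genes 1 was higher, ALAS2. SLC25A37, the mitochondrial iron importer mitoferrin 1, had 3373 and 187.5 CPM in globin-positive nuclei of DATG and 829 CPM in those of WT replicate 2, against 45.1, 101.2 and 84.5 CPM in other nuclei (edgeR adjusted p 0.163). None of 17 globin switching regulators, a list that holds genes such as BCL11A and LIN28B, passed, and their median log2 difference was -0.34, against -0.48 over all genes tested.

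The 7 genes outside those lists were TUBA4A, LINC02506, RFESD, MYL4, AGXT2 and 2 without a gene name, and they are named after their values were seen. AGXT2, a liver and kidney aminotransferase, had 9 UMIs in 2 globin-positive nuclei of DATG replicate 2 and 0 in those of the other libraries. The 12 markers of hepatocytes or yolk sac endoderm moved with that library: their sum was 820 and 7713 CPM in globin-positive nuclei of DATG and 330 CPM in those of WT replicate 2, against 579, 284 and 671 CPM in other nuclei. All 12 were detected in globin-positive nuclei, 0 passed the test, and their part in the result was not tested. Macrophage markers summed to 0 and 12.5 CPM in globin-positive nuclei of DATG and 18.8 CPM in those of WT replicate 2. In other nuclei the sum was 38.6, 44.1 and 64.6 CPM in that order. Of the 13 markers 10 were undetected in globin-positive nuclei. Those sums are shallow, so an undetected marker, here or in the next list, cannot be read as absent. Of 7 megakaryocyte markers PF4, GP9 and GP1BA were undetected, 2 were tested and 0 passed. Their sum was 91.2 and 25.0 CPM in globin-positive nuclei of DATG and 28.2 CPM in those of WT replicate 2. In other nuclei it was 14.8, 9.08 and 11.3 CPM in that order.

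A count that did not use globins gave the same nuclei in part. Of the 10 erythroid markers other than globins, 3 or more were detected in 15 nuclei: 3 and 1 in DATG, 0 and 2 in KO and 3 and 6 in WT. All 15 held a globin UMI, and 14 of them 2 or more. They made up 0.0277% and 0.0179% of kept nuclei in DATG, 0% and 0.0271% in KO and 0.0571% and 0.0549% in WT, so WT lay above DATG and KO here. The median globin count of these nuclei was 1325 and 119 UMIs in DATG, 4.50 in KO replicate 2 and 3 and 7.50 in WT. Nuclei with this marker set thus held far more globin UMIs in DATG, while their median depth was 2448 and 835 UMIs in DATG, 10232.5 in KO replicate 2 and 7652 and 1207 in WT. The limit of 3 markers was set after the data were seen, and these values were not tested. In WT replicate 2 the 6 nuclei held 0 HBE1 and 0 HBZ UMIs, with 21 gamma and 18 alpha UMIs. In DATG replicate 1 the 3 nuclei held 1497 HBE1 and 614 HBZ UMIs with 1518 gamma UMIs.

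Across whole libraries the other erythroid genes did not pass the test. In DATG against WT edgeR called 0 of the 23 tested erythroid surface and cytoskeleton genes in either direction, and their median log2 fold change was 0.04, against 0.03 over all genes and 3.37 over the globins. RHAG, the Rhesus-associated glycoprotein gene, had the smallest p of the list: it stood at 0.141 and 0.273 CPM in DATG and 0.703 and 0.772 CPM in WT, a log2 fold change of -1.71 ± 0.62 (edgeR adjusted p 1.00). The summed level of the 10 other erythroid markers was 3.96 and 1.64 CPM in DATG, 4.28 and 1.94 CPM in KO and 3.36 and 5.86 CPM in WT. The groups overlapped.

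The 10 lists of related genes held 148 genes, of which 129 were tested. With edgeR 0 passed in each comparison, with 6 in DATG against WT, 9 in DATG against KO and 12 in KO against WT at an unadjusted p under 0.05, where the shares of all genes were 2.98%, 6.08% and 4.63% in that order. DESeq2 called APOA1, a plasma apolipoprotein made by yolk sac endoderm and liver, lower in DATG than in WT, as were 0.219% of all genes, and APOA1 and CD34 lower in KO than in WT, as were 0.49% of all genes. APOA1 stood at 20.1 and 21.5 CPM in DATG, 12.2 and 9.65 CPM in KO and 51.7 and 62.4 CPM in WT, and edgeR gave it an adjusted p of 0.955 in KO against WT. Among the switching regulators LIN28B, which promotes fetal globin, stood at 71.5 and 85.8 CPM in DATG, 187.5 and 134.9 CPM in KO and 111.8 and 118.7 CPM in WT. Its log2 fold change in DATG over KO was -0.89 ± 0.25 (edgeR adjusted p 0.676). CD34, the blood progenitor and endothelial surface marker, stood at 9.22 and 5.82 CPM in DATG, 2.47 and 4.03 CPM in KO and 14.5 and 13.5 CPM in WT. Its log2 fold change in KO over WT was -2.06 ± 0.41 (edgeR adjusted p 1.00). The 12 endothelial markers summed to 164.8 and 382.9 CPM in DATG, 109.9 and 196.1 CPM in KO and 252.5 and 336.8 CPM in WT.

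Mouse globin RNA from the host was present in every library. It made up 2304 and 3422 UMIs in DATG, 112 and 1617 in KO and 144 and 457 in WT over all barcodes. Of the 50 globin-positive human nuclei 1, in KO replicate 2, also held a mouse globin UMI. Human globin UMIs in mouse nuclei numbered between 0 and 4 per library. HBD, the minor adult delta chain gene, had 6 and 0 UMIs in DATG, 1 and 1 in KO and 0 and 3 in WT, and HBQ1, the theta chain gene, had 12 and 3, 9 and 9, and 9 and 14 UMIs in the same groups.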

How the data were processed

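The deposited tables hold UMI counts per gene and barcode that the authors made with Cell Ranger, version 8.0.1 per the submitters' processing notes and 8.0.0 per the file headers, on a joint human (GRCh38) and mouse reference. The features carry the prefix GRCm39 for mouse and the notes name GRCm38. The sources used here do not give the counting mode or annotation release.

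Barcodes with at least 500 UMIs, 300 genes and 90% human UMIs were kept. Scrublet's highest scores, in proportion to the number of barcodes, were removed as doublets (5.20% to 10.8% of human barcodes). Clusters came from scanpy 1.11.5 (2000 variable genes, 30 components, Leiden resolution 1). A cluster was named when at least 3 markers of 1 list reached 20 CPM and were 2-fold above the rest. A minimum share of that list was also required. The name was dropped where another list held more of the cluster's top genes, or where a shallow cluster had none of the list among them. Counts summed per library were tested with edgeR 4.0.16 (TMM, filterByExpr, quasi-likelihood, 3 groups in 1 fit). Globin-positive and other nuclei were tested likewise with library as a block. DESeq2 1.42.0 was the alternative. Scripts were tested on simulated data.

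The text names every globin, the passing genes of the erythroid and heme lists, up to 15 further genes higher in globin-positive nuclei with at least 10 UMIs, and list genes with the smallest p. TUBA4A, RFESD, MYL4 and AGXT2 are named although they had fewer than 10 UMIs there. The members and lists were chosen with earlier results of these data known. Intervals and limits (3 counts) cover counting error only. Promoter and gene positions are from RefSeq and GENCODE 29. The values of 1 further gene are not reported here, although it is included in the counts of genes.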

Additional observations from a re-analysis of the deposited data

Results flagged for a closer look

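Barcodes outside the kept nuclei also held human globin RNA. In DATG replicate 2, barcodes with under 90% UMIs of either species held 1212 globin UMIs, and those of DATG replicate 1 held 7, against 2 and 6 in KO and 7 and 19 in WT, so the excess is in 1 library and not in the group. That library had 3649 such barcodes, and 1 of them, with 1855 UMIs of which 85.0% were human, held 911 globin UMIs. Its beta-like UMIs were 94.1% gamma with 0 HBE1, which sets it apart from the HBE1-rich nuclei of the same library, and 0 of the 10 other erythroid markers were detected in it. In DATG replicate 1, 1 barcode with 604 UMIs and 295 genes failed the limit on genes and held 226 globin UMIs. Barcodes that failed such limits numbered 1 and 2 in DATG, 0 and 1 in KO and 0 and 1 in WT, and those other than this one held 0 globin UMIs, too few to compare. Its HBE1 share of beta-like UMIs was 55.5%.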

How the results depend on the processing

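The count of globins called was 0 with edgeR, and with DESeq2 it was 2 in DATG against WT and 5 in DATG against KO. Over all genes edgeR called 0 and DESeq2 called 81 in DATG against WT, 71 in DATG against KO and 132 in KO against WT; without DATG replicate 1 edgeR called 2354, 6613 and 677 in the same order. Leaving out 1 library gave 0 to 2 called globins in DATG against WT and in DATG against KO, and 0 in KO against WT; the calls came without DATG replicate 1 (HBE1, and HBE1 with HBG1) and without DATG replicate 2 (HBE1 with HBZ, and HBZ). The lone DATG library is then assumed to vary like the others. List genes called moved from 0 to 2 (KO against WT) and 1 (DATG against WT) with DESeq2 and to 3 (KO against WT) with the 4 libraries alone; leaving out 1 library gave 0 to 3 in KO against WT, 0 to 8 in DATG against WT and 0 to 27 in DATG against KO. The difference in globin-positive share of DATG over WT reversed to -0.297 percentage points with nuclei of at least 1 UMI, and leaving out 1 library gave -0.0693 to 0.225. Summed globin of DATG over WT reversed to -1.25 CPM without the 13 nuclei of at least 20 globin UMIs, an alternative chosen after seeing the data that removes nuclei of DATG alone for their globin count and so can only lower DATG. Without 1 library the KO minus WT sum was -8.51 to 0.381 CPM. Single globins reversed in log2 fold change: without those nuclei HBG1 (-0.74), HBG2 (-0.87), HBA1 (-0.75) and HBA2 (-0.40) in DATG over WT; without 1 library HBM (-0.62 to 7.87) and HBB (-2.33 to 7.74) in DATG over WT, turning without DATG replicate 1, and in KO over WT HBE1 (-1.85 to 0.92; -0.10 without WT replicate 1), HBG2 (-3.49 to 0.38), HBA1 (-7.23 to 3.96), HBM (-2.27 to 4.27) and HBB (-6.10 to 2.22), the last 4 turning without WT replicate 2. The cause was not tested.

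Genes higher in globin-positive nuclei numbered 20; the count was 11 with at least 1 UMI, 38 with at least 3, 32 with DESeq2's size factors, 36 with no filter and 7 with no library block, and 6 to 22 without 1 library (6 without WT replicate 2). Of those 6, all were among the 20. The deviations of same-numbered libraries had r of 0.478 (DATG and KO), -0.139 (DATG and WT) and 0.114 (KO and WT). These values have no reference to be set against, so they cannot decide whether the numbers pair libraries. With the replicate number as a block 0 globins were called in each comparison.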
